A study of Mus musculus with 6 samples.

Results

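The cytosolic ribosomal protein genes of 4T1 cells were examined, 81 of the 24421 genes in the deposited expression table. They were chosen by symbol: Rpl or Rps with a number and at most one of the letters a, l, x or y, together with Rplp0, Rplp1, Rplp2 and Rpsa, leaving out pseudogenes and the ribosomal S6 kinases. Of these, 49 belong to the large subunit and 32 to the small subunit. 4T1 is a mouse breast adenocarcinoma line of epithelial type, grown here in DMEM with 10% fetal bovine serum under 21% oxygen. The groups were cells with a control short hairpin RNA (shCTL, 3 libraries) and cells with a hairpin against HSF1, the transcription factor of the heat shock response (shHSF1, 3 libraries). Both groups carry a hairpin and differ, per the labels, only in its target; how many hairpin sequences or clones were used, and whether each replicate was its own culture, the labels do not say, so the p-values rest on a spread between libraries that may be technical.

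Ribosomal proteins assemble with ribosomal RNA in the nucleolus into a small subunit, which reads the messenger RNA, and a large subunit, which joins amino acids. Their genes are transcribed strongly in growing cells, and most of their messengers begin with a run of pyrimidines (the 5′ terminal oligopyrimidine, or TOP, motif), through which mTOR signalling and the protein LARP1 act on their translation and stability. In human cancer cells HSF1 has been described as acting on genes for growth and translation beside the chaperones.

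The TOP motif lies at the very first base of the transcript. The following stretches show it at 4 genes described below, 2 with higher and 2 with lower mean values in shHSF1; each runs from 40 bases before the RefSeq annotated start through the first 20 transcribed bases (GRCm38.p6), and capitals mark the pyrimidine run over the first transcribed base.
Rpl38 (chr11:114668540-114668599, plus strand): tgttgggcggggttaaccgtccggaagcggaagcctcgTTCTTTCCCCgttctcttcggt
Rpl15 (chr14:18270967-18271026, minus strand): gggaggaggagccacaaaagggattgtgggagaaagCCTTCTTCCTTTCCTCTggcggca
Rplp2 (chr7:141447611-141447670, plus strand): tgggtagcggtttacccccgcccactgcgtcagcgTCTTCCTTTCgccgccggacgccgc
Rps6 (chr4:86857348-86857407, minus strand): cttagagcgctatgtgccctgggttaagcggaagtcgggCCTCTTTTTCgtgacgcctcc
Promoter windows of 300 bases were matched by symbol for 60 of the 81 genes. A gene counted as holding a pattern if any of its windows did. A C at the annotated start followed by at least 4 further pyrimidines was present in 13 of the 60 (21.7%), against 3.01% of all 27025 genes with a window. With the start allowed to move by up to 10 bases either way, 38 of 60 (63.3%) held the pattern, against 34.4% of all genes with a window.

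Reads assigned to genes came to between 23750025 and 36903175 per library, and between 1015516 and 1452107 of them fell on ribosomal protein genes. Both replicate 1 libraries stand apart from the other 4, so results are also given without them. Hsf1 itself had 18.4, 20.3 and 20.1 RPKM (reads per kilobase of exon, scaled to library size) in the shCTL libraries and 23.2, 13.8 and 15.4 RPKM in the shHSF1 libraries, in the order of their replicate numbers, which holds for all values below. The library labelled shHSF1 replicate 1 had the highest Hsf1 level of all 6, and every direction below rests on that label. The log2 difference was −0.20 (exact two-sided permutation p = 0.4, where 0.1 is the smallest that 3 against 3 allows), and −0.46 without both replicate 1 libraries (limma adjusted p = 0.0433). Of the epithelial markers, Krt8, Krt18, Cdh1, Epcam and Krt19 were present, Krt14 stayed at or below 1.95 RPKM and Krt5 was at 0. The leukocyte and endothelial markers Ptprc, Cd3e, Itgam, Adgre1, Pecam1, Cdh5 and Kdr did not exceed 0.134 RPKM in any library. The fibroblast markers chosen beside them are not reported here.

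Ribosomal protein genes were among the most abundant transcripts of the table. Of the 100 genes with the highest mean RPKM, 58 were ribosomal protein genes, and of the 119 tested genes above 400 RPKM, 62 were. Rpl7, a large subunit protein, was the highest, at 1879, 1695 and 1676 RPKM in shCTL and 1999, 1680 and 1896 RPKM in shHSF1. After it came Rplp1 of the ribosomal stalk, Rps26 at the messenger exit, Rpl4 of the peptide exit tunnel and the X-linked Rps4x, with means over the 6 libraries of 1544, 1523, 1420 and 1390 RPKM. The neighbours in this order did not differ beyond the spread between libraries: Rps26, for instance, ranged from 1256 to 2014 RPKM and Rplp1 from 1304 to 1807 RPKM.

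In all, 73 of the 81 genes had a mean above 10 RPKM. Their means ran from 64.9 RPKM for Rpl29 to 1804 RPKM for Rpl7, with a median of 750 RPKM. A functional ribosome is expected to hold 1 copy of nearly every protein, so this range is one of messenger levels per kilobase and not of protein. The lower end held Rpl29, Rps15a, Rpl35a, Rpl22 and the p53-inducible (in human cells) copy Rps27l, at means of 64.9, 78.3, 121, 121 and 135 RPKM. RPKM divides by the listed exon length, which was 5134 bases for Rps15a, 2497 for Rpl22 and 710 for Rpl29. In reads, Rps15a had 8833 to 13085 per library and Rpl29 993 to 1704, so a low RPKM need not mean few reads.

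The remaining 8 genes fell into 2 kinds. Rpl3l, known from striated muscle, Rpl10l and Rpl39l, known from testis, and Rps4l had at most 1 read in any library: Rpl3l had a single read in shCTL replicate 2, and the other 3 had none. At this depth, 3 reads on a gene of 2 kilobases would stand for between 0.0406 and 0.0632 RPKM. The other 4, Rpl26, Rpl30, Rpl34 and Rps27, encode core proteins found in every ribosome, yet were at or near 0. Rpl26, a protein beside the exit tunnel, had no read in any of the 6 libraries. Rpl30 stood at 1.17, 2.76 and 2.29 RPKM in shCTL and 1.83, 1.95 and 3.23 RPKM in shHSF1. Rpl34 stood at 1.41, 5.32 and 3.74 RPKM in shCTL and 4.03, 3.74 and 4.56 RPKM in shHSF1. Rps27 stood at 1.62, 1.76 and 1.60 RPKM in shCTL and 3.34, 1.13 and 1.88 RPKM in shHSF1. All 3 lay more than an order of magnitude below Rpl29, the gene with the next higher mean, in every library, and their groups overlapped.

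These 4 genes, singled out after their levels were seen, were also the 4 whose exons overlap most with another row of the table on the same strand. For Rpl26, 95.8% of exon bases are also listed under Gm15772. Rpl30 shares 76.0% with Gm12191, Rps27 shares 60.0% with Rps27rt, and Rpl34 shares 59.9% with Rpl34-ps1. Those 4 overlapping rows were at 0 in all 6 libraries. Overlap with a gene on the opposite strand went with no such level: Rpl5, with 47.7% of its exon bases under Fam69a, had a mean of 516 RPKM, Rpl31, with 33.1% under Tbc1d8, had 523 RPKM, and Rps25, with 29.4% under Ccdc84, had 750 RPKM. In 70 genes no exon base is listed under another row. How reads on shared exons were assigned the sources used here do not say, and the part of shared exons in the low levels was not tested; the values of these 4 genes are therefore uncertain.

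Ribosomal protein genes also have many processed pseudogenes. The share of 50-base windows of a gene's transcripts that recur in transcripts of other genes (GENCODE M21) was 98.7% for Rps27, 56.9% for Rpl26, 33.3% for Rpl34 and 25.4% for Rpl30. Among the 73 genes above 10 RPKM it ran from 0% to 86.7%, with a median of 38.5%, and Rpl3, at 85.6%, had a mean of 646 RPKM. The part of recurring sequence in the near-0 levels was not tested. The 7 pseudogene rows with a ribosomal protein name reached at most 10.3 RPKM, and 2 of them had no read. Levels of genes with recurring sequence remain uncertain, since the handling of reads that match more than 1 place is not given.

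**Figure D1:**
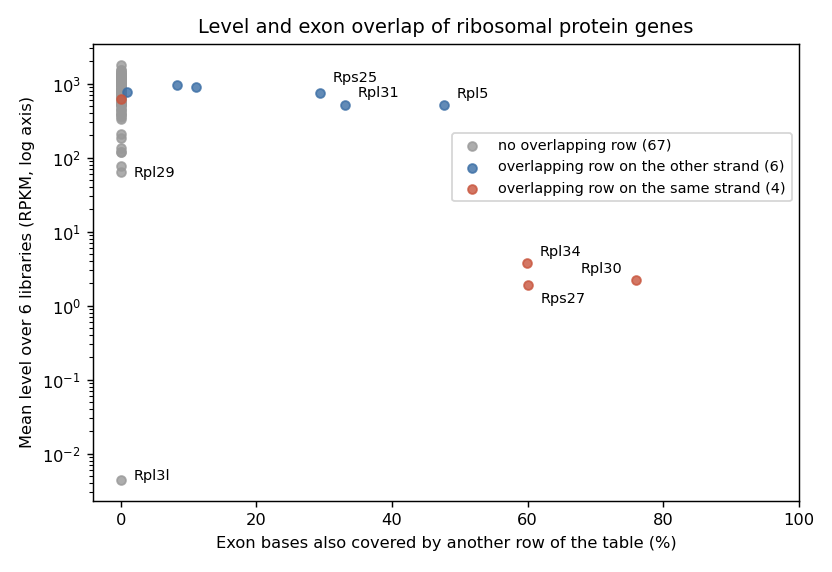
Mean level over 6 libraries (RPKM, log axis) of each ribosomal protein gene against the share of its exon bases that another row of the table also covers (%), with colour for the strand of that row. Rpl34, Rpl30 and Rps27 lie below 10 RPKM at overlaps of 59.9% to 76.0%, while Rpl13a, whose same-strand overlap is 1 base, stands with the rest; Rpl26, Rpl10l, Rpl39l and Rps4l, at 0, cannot be drawn on a log axis.

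The part of the transcriptome taken by the whole family differed between the groups by less than the spread between libraries. Ribosomal protein genes received 5.14%, 4.28% and 4.20% of reads in shCTL replicates 1 to 3 and 5.17%, 3.93% and 4.36% in shHSF1 replicates 1 to 3. The highest value of each group was its replicate 1, and the groups overlapped. Means were 4.54% ± 0.520 in shCTL and 4.49% ± 0.628 in shHSF1 (SD, n = 3 each), a difference of −0.049 percentage points. Large subunit genes took 2.78% ± 0.320 and 2.82% ± 0.383 of reads, and small subunit genes 1.76% ± 0.200 and 1.67% ± 0.246. Because these are shares of a bulk library, a change in total RNA per cell could not be seen, and fewer cells and less RNA per cell cannot be told apart.

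**Figure D2:**
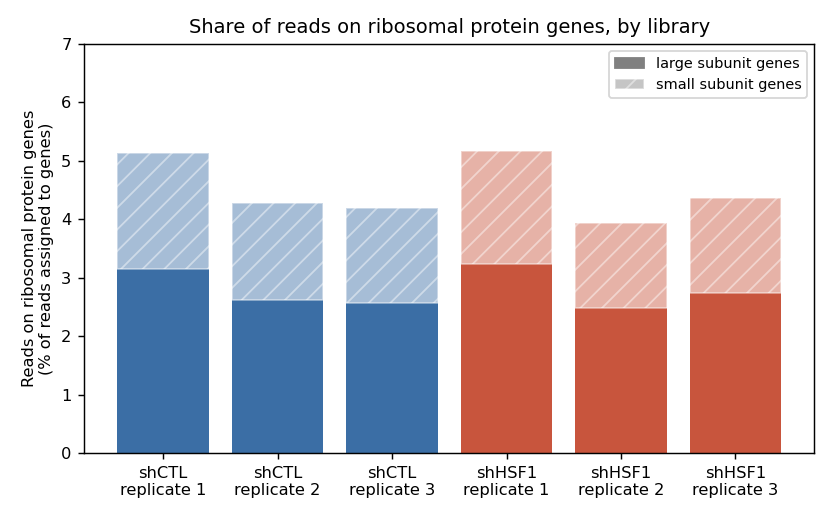
Share of each library's assigned reads that fell on ribosomal protein genes (%), stacked by subunit, for 3 shCTL and 3 shHSF1 libraries. Both replicate 1 libraries are the highest of their group, at 5.14% and 5.17%, and the other 4 lie between 3.93% and 4.36%.

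Gene by gene, none of the ribosomal protein genes passed the test between the groups. Of the 81 genes, 76 passed the filter on low values (at least 0.5 RPKM in 3 libraries) and 0 of them had a limma adjusted p under 0.05, where the test called 3 of all 11386 genes tested (0.0263%). At an unadjusted p under 0.05 there were 3 ribosomal protein genes, or 3.95% of the 76, against 11.4% of all genes. With the replicate number as a block, 0 of 76 passed and 22 had an unadjusted p under 0.05 (28.9%, against 23.8% of all genes), while 20 genes of the whole table passed (0.176%). Without both replicate 1 libraries, where 11.1% of all genes passed, again 0 of 76 did; 14 had an unadjusted p under 0.05 (18.4%, against 32.3% of all genes). The voom test on reads likewise called 0 of 76.

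The differences were small in either direction. On the log2(RPKM + 0.5) scale the median difference, shHSF1 minus shCTL, was −0.01 over the 76 genes, with 34 above 0 and 42 below, and 0.05 over all genes tested. Its sign depended on the scaling, with −0.08 under TMM factors and 0.02 under quantile normalization. The 76 values ran from −0.40 to 0.44 and had an SD of 0.20, against an SD of 0.39 over all genes. None of the 76 differed by more than 0.5, while 1559 of the 11386 genes tested did. The sets were unlike in level, with median gene levels of 705 RPKM in the 76 genes and 12.3 RPKM in all genes tested. The part of level in the narrower spread was not tested. For 73 of the 76, the 95% interval of the difference lay between −1 and 1, that is, within a doubling or halving. The same held for 8060 of the 11386 genes tested. Among the 76, Rpl34, Rps24 and Rps2 had wider intervals. The large subunit median was 0.03 over 45 genes and the small subunit median −0.08 over 31 genes. Across the 73 abundant genes the difference had a Pearson correlation of −0.10 with gene length, −0.03 with GC content and 0.01 with level, given as a description over genes that share the same 6 libraries.

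**Figure D3:**
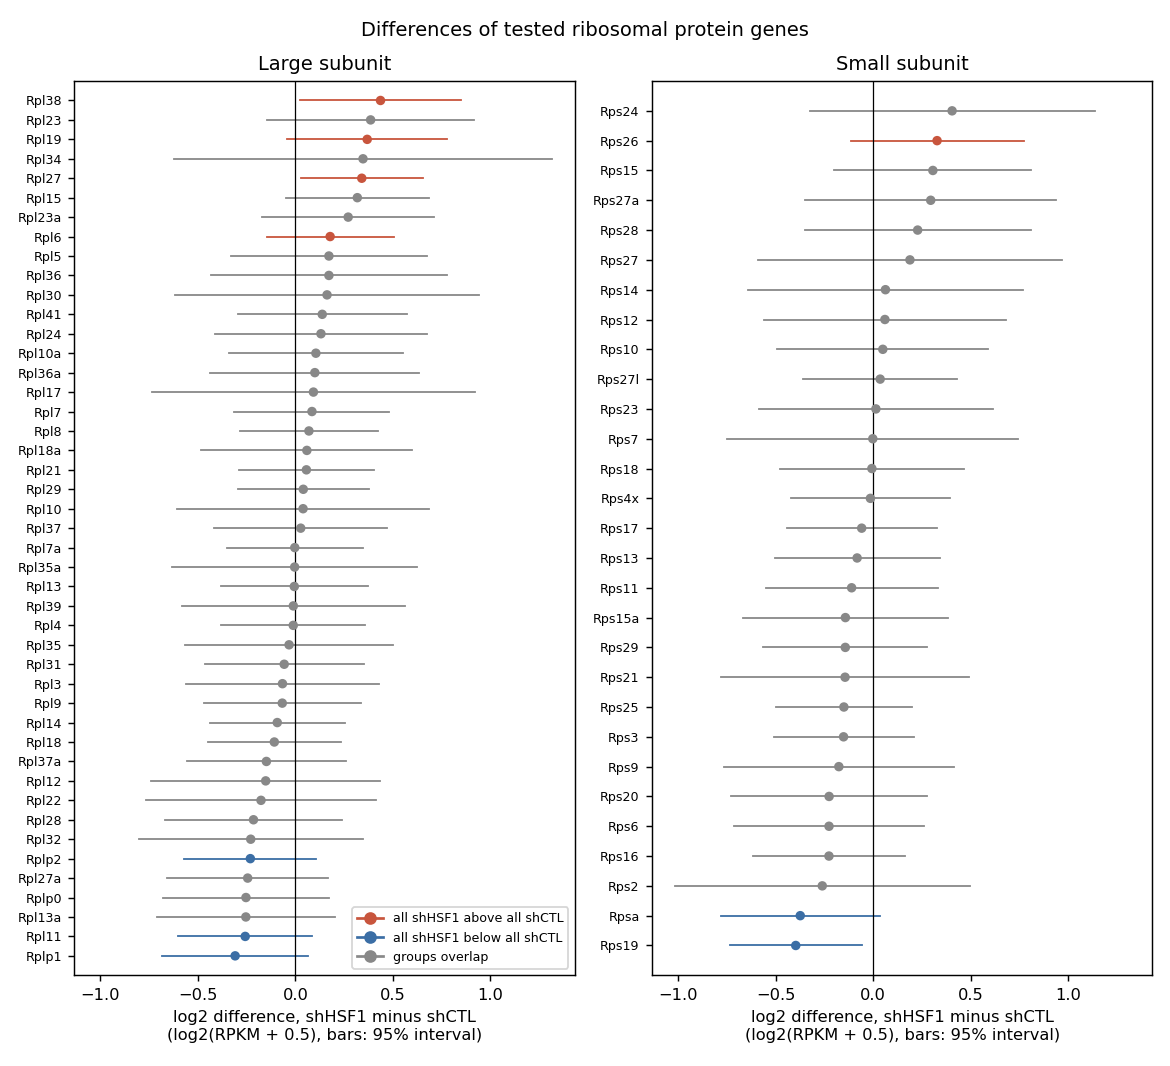
Log2 difference (shHSF1 minus shCTL, log2(RPKM + 0.5) scale) of tested ribosomal protein genes, each with its 95% interval from limma, by subunit, coloured where all 3 libraries of one group lay above all 3 of the other. All values lie between −0.40 and 0.44, and all intervals but those of Rpl27, Rpl38 and Rps19 cross 0.

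In 5 genes all 3 shHSF1 libraries stood above all 3 shCTL libraries (6.58% of 76, against 12.9% of all genes tested): Rpl19, Rpl27, Rpl38, Rpl6 and Rps26. Rpl27 (chromosome 11, 101442245 to 101445596, plus strand, mm10), a large subunit protein, stood at 306, 292 and 285 RPKM in shCTL and 408, 339 and 375 RPKM in shHSF1. Its lowest shHSF1 library was above its highest shCTL library, the log2 difference was 0.34 (SE 0.13), and the limma adjusted p was 0.396. Rpl38 (chromosome 11, 114668543 to 114672331, plus strand), which in the mouse is known for its part in translating Hox messengers, stood at 491, 419 and 416 RPKM in shCTL and 714, 513 and 578 RPKM in shHSF1. That was the largest difference of the 76 genes, 0.44 (SE 0.17, limma adjusted p = 0.416). Rpl19 (chromosome 11, 98026710 to 98030493, plus strand), a protein that bridges the 2 subunits, stood at 1004, 887 and 834 RPKM against 1340, 1030 and 1159 RPKM, with a difference of 0.37 (SE 0.17, limma adjusted p = 0.486). For Rpl15 (chromosome 14, 18267823 to 18270986, minus strand), a protein bound to the large ribosomal RNA, the values were 185, 157 and 148 RPKM against 233, 183 and 195 RPKM. Each of its pairs went up, but shCTL replicate 1 lay above the lowest shHSF1 library, and the limma adjusted p was 0.502.

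In 6 genes all 3 shHSF1 libraries stood below all 3 shCTL libraries (7.89% of 76, against 7.16% of all genes tested), among them Rpl11, Rplp1, Rplp2, Rps19 and Rpsa. Rps19 (chromosome 7, 24884714 to 24889802, plus strand), the gene most often mutated in human Diamond-Blackfan anaemia, stood at 565, 500 and 463 RPKM in shCTL and 401, 357 and 400 RPKM in shHSF1. With −0.40 (SE 0.14) it had the largest negative difference and, at 0.358, the smallest limma adjusted p of the family. Rpsa (chromosome 9, 120127766 to 120132369, plus strand), which also serves as a laminin receptor, stood at 1437, 1446 and 1475 RPKM in shCTL and 958, 1143 and 1285 RPKM in shHSF1. Its shCTL libraries were nearly level and its shHSF1 libraries spread, giving a log2 difference of −0.37 (SE 0.17, limma adjusted p = 0.474).

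The genes for the proteins of the P stalk, which recruits elongation factors to the ribosome, had lower values in every same-numbered pair. So did many other ribosomal protein genes outside the stalk, among them Rpl11, Rpl22, Rpl13a, Rps19, Rpsa, Rps2, Rps3 and Rps6. Rplp1 (chromosome 9, 61913283 to 61914510, minus strand) stood at 1807, 1666 and 1650 RPKM in shCTL and 1304, 1332 and 1502 RPKM in shHSF1, a difference of −0.31 (SE 0.16, limma adjusted p = 0.528). Its partner Rplp2 stood at 821, 716 and 719 RPKM against 683, 607 and 630 RPKM (difference −0.23, limma adjusted p = 0.605). Rplp0, which anchors both to the large subunit, stood at 1187, 1040 and 998 RPKM against 1064, 788 and 866 RPKM (difference −0.25, limma adjusted p = 0.659). Only in Rplp0, of the 3, did the groups overlap, through shHSF1 replicate 1. Rpl5 and Rpl11, which with 5S ribosomal RNA form the particle that binds the p53 inhibitor Mdm2, had differences of opposite sign. Rpl5 stood at 567, 427 and 456 RPKM against 687, 448 and 512 RPKM (difference 0.17), and Rpl11 at 746, 686 and 666 RPKM against 622, 527 and 608 RPKM (difference −0.26). Neither passed the test (limma adjusted p = 0.844 and 0.562). Without shHSF1 replicate 1 the Rpl5 difference was −0.0018, and without shHSF1 replicate 2 that of Rplp0 was −0.16. With both replicate 1 libraries left out, Rpl5 had 0.12 and Rplp0 −0.30.

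Around the peptide exit tunnel, 8 of the 9 listed genes were tested and 3 had differences above 0. Beside Rpl19, Rpl23a, a docking site for factors that meet the emerging chain, had the largest difference, 0.27, at 1147, 920 and 984 RPKM against 1421, 1048 and 1224 RPKM. Rpl4, Rpl39, Rpl35, Rpl31 and Rpl22 had values between −0.18 and −0.01, and Rpl17 had 0.09. Along the path of the messenger, Rps26 and Rps28, both at the exit, had differences of 0.33 and 0.23. Rps26 stood at 1422, 1357 and 1256 RPKM against 2014, 1450 and 1640 RPKM, and Rps28 at 872, 626 and 597 RPKM against 1062, 690 and 714 RPKM. The Rps26 groups did not overlap, while those of Rps28 did. Rps2 and Rps3 at the entry had −0.26 and −0.15, and Rps23 at the decoding centre had 0.01. Rps6, the target of the S6 kinases, had −0.23, Rpl13a, a translational silencer in human monocytes, had −0.25, and Rps27a, made as a fusion with ubiquitin, had 0.29; in all 3 the groups overlapped. Several of these values moved when the replicate 1 library of 1 group was left out and that of the other group kept. Without shHSF1 replicate 1, Rpl23a had 0.16, Rps26 0.20, Rps28 0.029, Rps27a 0.046 and Rps2 0.031. Without shCTL replicate 1, Rpl22 had 0.022, Rps3 −0.058, Rps6 −0.12 and Rpl13a −0.12. With both replicate 1 libraries left out, Rpl23a had 0.25, Rps26 0.24, Rps28 0.20, Rps27a 0.20 and Rps2 −0.18. In that setting Rpl22 had −0.18, Rps3 −0.12, Rps6 −0.30 and Rpl13a −0.23.

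**Figure D4:**
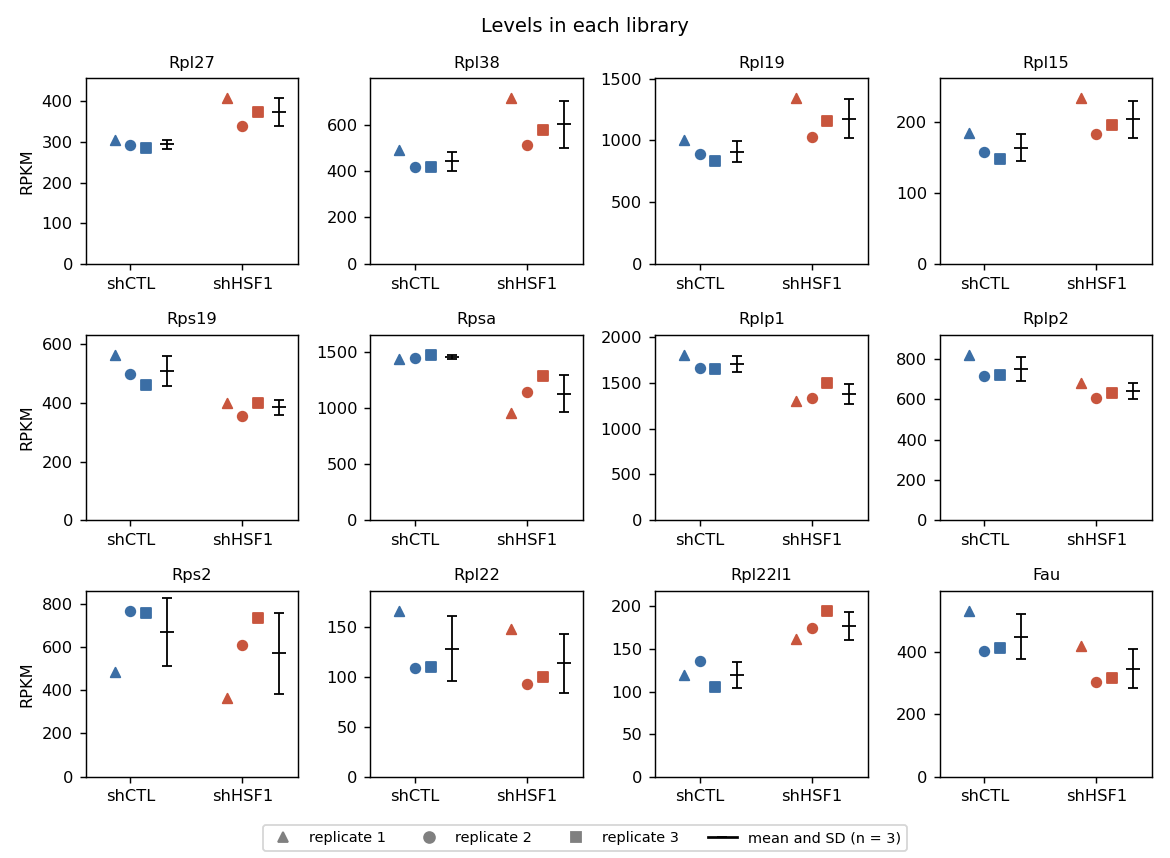
Level (RPKM) in each library of 10 ribosomal protein genes and of Rpl22l1 and Fau, with the mean and SD of each group (n = 3) and a marker shape for each replicate number. Rpl27, Rpl38 and Rpl19 are higher and Rps19, Rpsa, Rplp1 and Rplp2 lower in all shHSF1 libraries, while Rps2 is lowest in both replicate 1 libraries.

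Most ribosomal protein genes were highest in the replicate 1 library of each group. In shCTL, replicate 1 was above both other libraries in 68 of the 76 genes (89.5%, against 48.7% of all genes tested), and in shHSF1 in 65 of 76 (85.5%, against 52.9%). The median difference of replicate 1 from the mean of replicates 2 and 3 was 0.30 in shCTL and 0.36 in shHSF1 on the log2 scale, and 0.04 and 0.12 over all genes. Rps7, a small subunit protein, showed it plainly, at 682, 441 and 443 RPKM in shCTL and 774, 395 and 434 RPKM in shHSF1. Rpl17 stood at 1064, 596 and 578 RPKM and at 1142, 587 and 663 RPKM, so that in both groups replicate 1 was the high library. Rps2, named like the next genes after its values were seen, went the other way: it stood at 486, 767 and 756 RPKM in shCTL and 364, 609 and 737 RPKM in shHSF1. Replicate 1 was also the lowest library of shHSF1 for Rpsa and Rpl29. What the replicate numbers share is not stated, and its part in these levels was not tested. Within the same-numbered pairs the median difference of the 76 genes between hairpins was 0.03, −0.16 and 0.05 for replicates 1 to 3, with 40, 15 and 46 genes above 0. Without both replicate 1 libraries the median was −0.05.

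Several ribosomal proteins have names or copies that the symbol rule does not take in, and 8 of 10 such listed symbols were in the table, 7 of them tested. The median difference of these 7 was 0.25, with 6 above 0 (6500 of 11386 over all genes tested), and 0 passed the test. Rpl22l1, the paralogue that can replace Rpl22 in the large subunit, stood at 120, 135 and 105 RPKM in shCTL and 162, 174 and 195 RPKM in shHSF1. All shHSF1 libraries were above all shCTL libraries, the log2 difference came to 0.56 (SE 0.15, limma adjusted p = 0.235), and without both replicate 1 libraries it was 0.63 (limma adjusted p = 0.0463). Rpl22 itself stood at 166, 109 and 110 RPKM against 148, 93.2 and 100 RPKM (difference −0.18, limma adjusted p = 0.867). The ratio of Rpl22l1 to Rpl22 in RPKM was thus 0.721, 1.24 and 0.953 in shCTL, and 1.87 and 1.94 in shHSF1 replicates 2 and 3. In shHSF1 replicate 1 it lay between the upper 2 shCTL values. Its means were 0.971 ± 0.259 and 1.64 ± 0.468 (SD, n = 3 each), and the groups overlapped through shCTL replicate 2 and shHSF1 replicate 1. Fau, which encodes Rps30 fused to a ubiquitin-like protein, was lower in each pair, at 530, 402 and 411 RPKM against 417, 304 and 317 RPKM. Its difference was −0.38 (SE 0.19, limma adjusted p = 0.522), and −0.25 without shCTL replicate 1 and −0.39 without both replicate 1 libraries (limma adjusted p = 0.0437 for the latter). Without both replicate 1 libraries only Rpl22l1 and Fau of the 7 passed, in a setting where 11.1% of all genes tested did. The Rack1 gene, listed as Gnb2l1, a scaffold on the small subunit, had a difference of 0.34 (limma adjusted p = 0.532).

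Genes that act with the ribosome were read beside the family from lists chosen with earlier results of these data known, and 0 genes passed the test in each of 4 lists. Of 28 translation factors and other transcripts with a TOP motif, 14 had differences above 0, and the median was −0.00. Pabpc1, the poly(A)-binding protein, stood at 1952, 1768 and 2027 RPKM in shCTL and 1374, 1238 and 1364 RPKM in shHSF1, without overlap (difference −0.53, SE 0.16, limma adjusted p = 0.284). Npm1, a nucleolar chaperone of ribosome assembly, stood at 1104, 1038 and 1062 RPKM against 1279, 1262 and 1471 RPKM (difference 0.32, limma adjusted p = 0.487). Without both replicate 1 libraries Pabpc1 passed the test (difference −0.54, limma adjusted p = 0.0415), as did 2 others of the list, Eif4g2 and Snhg1, all 3 lower in shHSF1. In that setting 11.1% of all genes tested passed, 802 of them higher and 460 lower.

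Of 52 ribosome biogenesis factors, 38 had differences above 0, with a median of 0.14. Over all genes tested, 6500 of 11386 had differences above 0, with a median of 0.05. Within same-numbered pairs the median of the biogenesis factors was 0.61, −0.18 and −0.01 for replicates 1 to 3. Without both replicate 1 libraries it was −0.08. Senp3, a SUMO protease of the nucleolus, stood at 31.5, 39.5 and 39.7 RPKM against 50.3, 46.3 and 53.9 RPKM (difference 0.44, limma adjusted p = 0.317), and Tex10, a protein of the same assembly complex, had −0.30 (limma adjusted p = 0.709). Among 19 tested regulators of ribosomal protein synthesis, 13 had differences above 0, with a median of 0.10. Eif4ebp2, a repressor of cap-dependent translation, stood at 25.4, 35.1 and 32.2 RPKM against 41.0, 40.1 and 40.9 RPKM (difference 0.40, limma adjusted p = 0.378), and Mtor had −0.29 (limma adjusted p = 0.630).

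The 77 mitochondrial ribosomal protein genes, which encode the separate ribosome of mitochondria, had a median difference of 0.07, with 49 above 0 (6500 of 11386 over all genes tested). Mrps16 stood at 16.7, 15.3 and 16.0 RPKM against 23.2, 21.1 and 24.6 RPKM (difference 0.50, SE 0.12, limma adjusted p = 0.221). Mrps6 stood at 70.6, 61.4 and 57.1 RPKM against 39.6, 42.7 and 45.7 RPKM (difference −0.56, SE 0.13, limma adjusted p = 0.214). In neither gene did the groups overlap, and both passed without both replicate 1 libraries (limma adjusted p = 0.0404 for Mrps16 and 0.0438 for Mrps6). In that setting 2 genes of the list passed as higher and 4 as lower, and 11.1% of all genes tested passed. At an unadjusted p under 0.05 there were 14 of these 77 genes, against 3 of the 76 cytosolic ones and 11.4% of all genes. With the replicate number as a block there were 21 of the 77 and 22 of the 76, against 23.8% of all genes. Without both replicate 1 libraries there were 24 and 14, against 32.3% of all genes. The difference between the families was not tested. Replicate 1 was not higher here: its median difference from replicates 2 and 3 was −0.18 in shCTL and −0.05 in shHSF1.

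**Figure D5:**
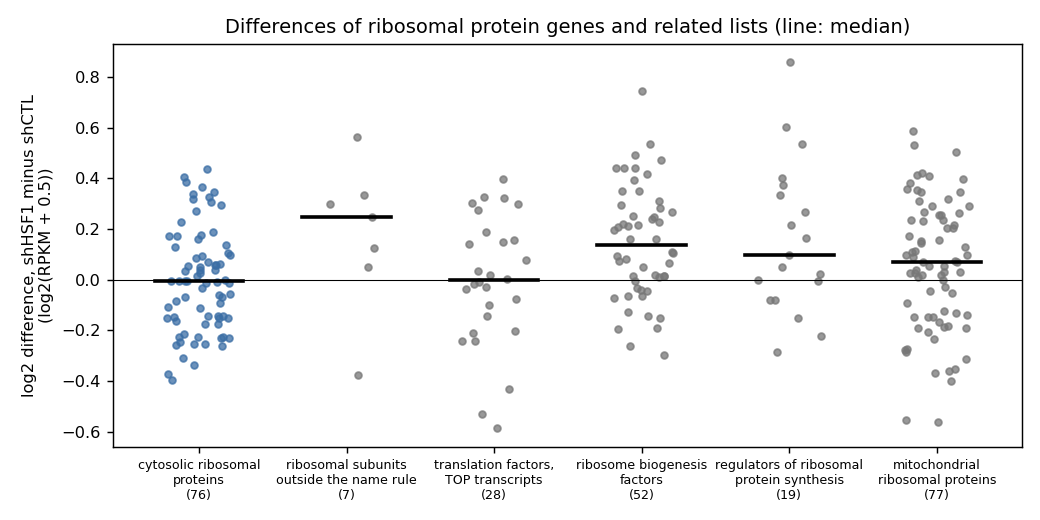
Log2 difference (shHSF1 minus shCTL, log2(RPKM + 0.5) scale) of each tested gene in the cytosolic ribosomal protein family and in 5 related lists, with the number of genes in brackets and a line at the median. The family centres on −0.01 and lies between −0.40 and 0.44, and the medians of the other lists lie between −0.00 and 0.25.

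HSF1 binds inverted repeats of the unit GAA, so the promoter windows of the 60 matched genes were searched for them on both strands. The pair GAANNTTC was present in 4 of 60 (6.67%, against 9.04% of all genes with a window) and TTCNNGAA in 5 (8.33%, against 9.60%). The triple unit, GAANNTTC followed directly by NNGAA, holds both pairs and was present on either strand in 2 (3.33%, against 0.662%). They belong to Rpl22 and Rps18 and are shown because the triple is the fullest form of the HSF1 motif that was searched (capitals, GRCm38.p6). Rpl22 has annotated starts at 152324436 and 152325726. The position given for Rpl22 refers to the start at 152324436, and the window of the other start held no triple.
Rpl22 (chr4:152324407-152324455, plus strand, triple from position −9 relative to the annotated start): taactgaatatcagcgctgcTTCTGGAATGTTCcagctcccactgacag
Rps18 (chr17:33955848-33955900, minus strand, triple from position −215): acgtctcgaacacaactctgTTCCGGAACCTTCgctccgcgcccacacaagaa
Rpl22 had a difference of −0.18, as given above, and Rps18 one of −0.01, at 832, 668 and 644 RPKM in shCTL and 871, 612 and 662 RPKM in shHSF1. In both genes the groups overlapped. The ETS core CCGGAAG was present in 25 of 60 genes (41.7%, against 9.93%), among them Rpl38 in the stretch printed above, and the YY1 core AAGATGG in 9 (15.0%, against 7.28%). A match is a description of letters in these windows and does not show binding.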

How the data were processed

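Per the labels' protocols, the 6 libraries were made from polyadenylated RNA with the KAPA mRNA HyperPrep kit. The submitters' processing notes name STAR, featureCounts and mm10; for versions, strand setting and multi-mapping rules the sources used here give nothing. RPKM, exon positions and lengths are what the authors deposited, per the file headers, and every column belonged to one of the 6 samples. RPKM multiplied by length gave whole reads within a tolerance of 0.001, used for totals, shares, read numbers of single genes and voom only.

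Members and gene lists were chosen with earlier results of these data known. Genes with at least 0.5 RPKM in 3 of 6 libraries (11386) were tested on log2(RPKM + 0.5), a scale that understates changes of low genes, with limma 3.58.1 (R 4.3.3; variance trend, Benjamini-Hochberg at 0.05, no block). Named members were the 5 most abundant, the 4 with the smallest p in each direction, all members of the role groups and those failing the filter; from each related list, the gene with the smallest p in each direction. Rpl3, Rpl6, Rps7, Rps18, Rpl29, Rps15a, Rpl35a, Rps24, Rps25, Rpl30, Rpl34, Rps27, Gnb2l1, Eif4g2 and Snhg1 were named after their values were seen. A few members that the rule names are not reported here. Exon overlap was read from the deposited positions. Promoters are from RefSeq (GRCm38.p6). The replicate numbers were checked for pairing: deviations of same-numbered libraries from their group means correlated at 0.58, 0.18 and 0.68 across genes, so by the threshold of 0.1 they were taken to pair. Libraries of different number also correlated, shCTL replicate 2 with shHSF1 replicate 3 at 0.51 and shCTL replicate 3 with shHSF1 replicate 2 at 0.24, so these values set replicate 1 apart and do not match replicates 2 and 3 by number; what a shared number stands for is not in the labels. No libraries were duplicates (chi-square per degree of freedom at least 21.6). The code was tested on simulated data. Python 3.11.15 with pandas 2.3.3, numpy 2.4.6 and matplotlib 3.10.9 was used. Alternatives were other pseudocounts, filters, scalings and variance models, the replicate block, and libraries left out; voom and scaling to the median ribosomal protein gene were added after the data were seen.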

Additional observations from a re-analysis of the deposited data

How the results depend on the processing

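No ribosomal protein gene passed the test in any of 20 settings (19 alternatives), and the number at an unadjusted p under 0.05 ran from 0 to 22. Of 589 values of 31 named members, 550 kept their sign. The number of all genes called was 3, and became 18 without a filter, 1 with at least 1 RPKM in all libraries, 22 without a variance trend, 20 with the replicate block, 10 with voom, 1262 without both replicate 1 libraries, and 0 to 8 with 1 library left out. Without both replicate 1 libraries where 11.1% of all genes passed, the lists called 6 of 77 mitochondrial ribosomal proteins, 2 of 7 subunits outside the name rule, 1 of 52 biogenesis factors and 3 of 28 TOP transcripts, and Hsf1 fell by 0.46. With 1 library left out, the family's median ran from −0.16 to 0.08, the large minus small subunit median from 0.020 to 0.11 and the difference in read share from −0.39 to 0.25 percentage points. The block changed no call of a named gene. The planned quasi-likelihood count test was not run, since the deposited unit is RPKM.

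Signs turned for the following members; the cause was not tested. Quantile normalization gave Rpl39 0.064, Rpl4 0.058 and Rps4x 0.060, scaling to the median ribosomal protein gene gave 0.014, 0.014 and 0.010, and Rpl4 was 0.039 without both replicate 1 libraries. Median-of-ratios, TMM, voom and leaving out both replicate 1 libraries gave Rps23 −0.047, −0.057, −0.052 and −0.050, and Rps27l −0.025, −0.035, −0.035 and −0.015. With 1 library left out, Rpl17 ran from −0.20 to 0.38, Rpl22 from −0.38 to 0.022, Rpl31 from −0.16 to 0.052, Rpl35 from −0.19 to 0.13, Rpl39 from −0.19 to 0.17, Rpl4 from −0.063 to 0.033, Rpl5 from −0.0018 to 0.31, Rps2 from −0.48 to 0.031, Rps23 from −0.20 to 0.17, Rps27l from −0.090 to 0.12 and Rps4x from −0.11 to 0.056. Depth does not limit the abundant members, while those below 10 RPKM rest on at most 95 reads.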
